A study of Rattus norvegicus with 141 samples.

Results

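Bone morphogenetic protein (BMP) signalling was followed through 10 genes in the liver, stomach and duodenum of rats given microplastic. The genes were picked by symbol: the ligands Bmp2, Bmp4 and Bmp6, the secreted antagonist Grem1, the decoy receptor Bambi, the inhibitory Smads Smad6 and Smad7, and the target genes Id1, Id2 and Id3. Each matched 1 row of the 30562 genes counted. All groups were male or female Sprague-Dawley rats, WT and adult, on standard chow, and were given vehicle, 5 mg/kg (low dose) or 50 mg/kg (high dose). The labels name neither the particle nor the route or length of exposure. PolyA RNA of whole tissue pieces gave 141 libraries (liver 46, stomach 48, duodenum 47), with 8 per tissue, sex and dose except 7 duodenum libraries of control females and 6 liver libraries of high-dose females. Batch, which was unevenly spread over the groups, was a term in the fits within a tissue. The labels name 3 batches without saying which step they mark. They number the libraries as replicates without saying that each is 1 animal, so p-values may rest in part on technical spread.

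BMPs are secreted proteins of the TGF-beta superfamily. They bind paired type I and type II receptors, which phosphorylate Smad1, Smad5 and Smad9; these join Smad4 and switch on targets in the nucleus. The Id genes, which encode inhibitors of basic helix-loop-helix transcription factors, are early targets, and Smad6, Smad7 and Bambi are targets that damp the signal that induced them. In the liver, BMP2 and BMP6 from sinusoidal endothelial cells set hepatocyte production of the iron hormone hepcidin, encoded by Hamp, as shown in mice. In the gut, BMPs are strongest toward the villus and the lumen, and gremlin 1 from cells around the crypt base holds them off the stem cells.

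The stretch before the start of Smad7 is shown beside that of Id1, because both genes fell in the high-dose duodenum. Capitals mark GGCGCC, a GC-rich element that BMP Smads are known to bind. Both stretches are from RefSeq, build GRCr8, printed 5′ to 3′ on the plus strand, which is the strand of both genes. The Smad7 window is chr18:71263258-71263507 and the Id1 window, cut where the annotated gene begins, is chr3:161671314-161671524.
Smad7: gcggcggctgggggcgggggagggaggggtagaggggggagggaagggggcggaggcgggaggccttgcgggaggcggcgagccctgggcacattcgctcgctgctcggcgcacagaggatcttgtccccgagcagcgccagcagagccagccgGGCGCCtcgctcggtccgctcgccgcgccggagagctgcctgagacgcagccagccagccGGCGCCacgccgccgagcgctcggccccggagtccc
Id1: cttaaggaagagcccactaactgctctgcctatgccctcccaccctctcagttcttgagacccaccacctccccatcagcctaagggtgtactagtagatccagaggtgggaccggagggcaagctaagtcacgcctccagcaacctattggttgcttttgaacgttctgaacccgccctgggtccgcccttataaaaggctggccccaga
GGCGCC, which reads the same on both strands, stood 96 and 36 bases before the Smad7 start and was not in the Id1 window. It was found in 8.69% of all 33469 promoter windows of 250 bases, and in 3 of the 8 members that the promoter table holds (Smad7, Bambi and Grem1). The longer element GTCTAGAC was in 0.173% of windows and in none of these 8. A match is a run of letters, not a measured binding site. Bases outside these windows were not searched, so the element may lie farther from either start.

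The levels below are CPM, counts scaled to a common library total, after one scaling over all libraries, with the SD over libraries. Library totals ran from 4947800 to 25504000 counts. CPM carries no correction for gene length, so a gene is compared with itself across groups and not with other genes. Each tissue carried its own defining markers, given as medians over all its libraries: Alb stood at 140557 CPM in liver, 4.52 in stomach and 1.51 in duodenum, Atp4a at 4186 in stomach against 0 and 0.167 in liver and duodenum, and Vil1 at 1056 in duodenum against 0.294 in liver and 3.98 in stomach. Krt13, a keratin of the squamous forestomach, was also present in stomach (681 CPM). Pancreatic acinar transcripts, summed over 7 genes, ranged from 0.599 to 43307 CPM among the control duodenum libraries. A piece with fewer cells of a type and a piece with less RNA per cell cannot be told apart in these bulk libraries.

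In vehicle controls the ligands differed in where they were found. Bmp4, made mostly by stromal cells of the gut wall, ran from 0.442 to 1.12 CPM (median 0.801) over the 16 liver libraries, from 10.5 to 23.5 (median 14.9) over the 16 stomach libraries and from 13.8 to 42.6 (median 18.9) over the 15 duodenum libraries. The liver range lay wholly under the other two. Its log2 difference was 4.18 ± 0.17 (SE) for stomach over liver (edgeR adjusted p = 1.51e-26) and 4.59 ± 0.17 for duodenum over liver (edgeR adjusted p = 4.74e-28). Bmp2 had means of 6.33 ± 2.43, 6.14 ± 2.10 and 7.04 ± 2.79 CPM in liver, stomach and duodenum, and none of its 3 differences passed the threshold of adjusted p under 0.05. Bmp6 was highest in stomach at 9.15 ± 0.86 CPM, against 5.42 ± 2.32 in liver and 4.68 ± 1.69 in duodenum. Stomach passed the test over both, and liver and duodenum did not differ beyond their spread (edgeR adjusted p = 0.168).

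Grem1, the antagonist, had the widest gap. The 16 control livers together held 36 counts, with 4 at 0 and none above 1.12 CPM. In stomach it ran from 56.6 to 104.7 CPM (median 69.5) and in duodenum from 22.4 to 90.8 (median 38.4). Stomach exceeded duodenum by 0.75 ± 0.15 on the log2 scale (edgeR adjusted p = 1.91e-05). Bambi, a kinase-less receptor, averaged 4.11 ± 1.23 CPM in stomach, 3.31 ± 1.65 in liver and 2.02 ± 0.51 in duodenum, and all 3 differences passed.

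The target genes split. Id1 was lowest in liver, from 0.813 to 19.5 CPM (median 3.17), against 17.8 to 44.5 (median 34.0) in stomach and 17.9 to 55.0 (median 27.8) in duodenum. The liver and gut ranges overlapped at the edge, through female livers. The log2 difference was 3.13 ± 0.20 for stomach over liver (edgeR adjusted p = 1e-18), and stomach and duodenum did not differ beyond their spread (edgeR adjusted p = 0.122). Id2 went the other way, with means of 206.5 ± 77.9 CPM in liver, 77.7 ± 11.2 in stomach and 45.2 ± 9.5 in duodenum, each step passing. Id3 stayed within 27.7 to 34.3 CPM on average, and 1 of its 3 differences passed, stomach being lower than duodenum (-0.24 ± 0.09; edgeR adjusted p = 0.0198). Smad7 averaged 18.5 ± 7.2 CPM in liver against 29.3 ± 3.6 in stomach and 27.2 ± 7.4 in duodenum, both above liver. Smad6 averaged 9.82 ± 2.90, 8.14 ± 1.25 and 7.51 ± 1.39 CPM in the same order, and only duodenum against liver passed (-0.44 ± 0.11).

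Of the 10 genes, 7 passed between stomach and liver, 7 between duodenum and liver and 6 between stomach and duodenum. The share of all 16033 tested genes that passed was 82.8%, 82% and 76.9%, so these counts sit under the background.

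**Figure D1:**
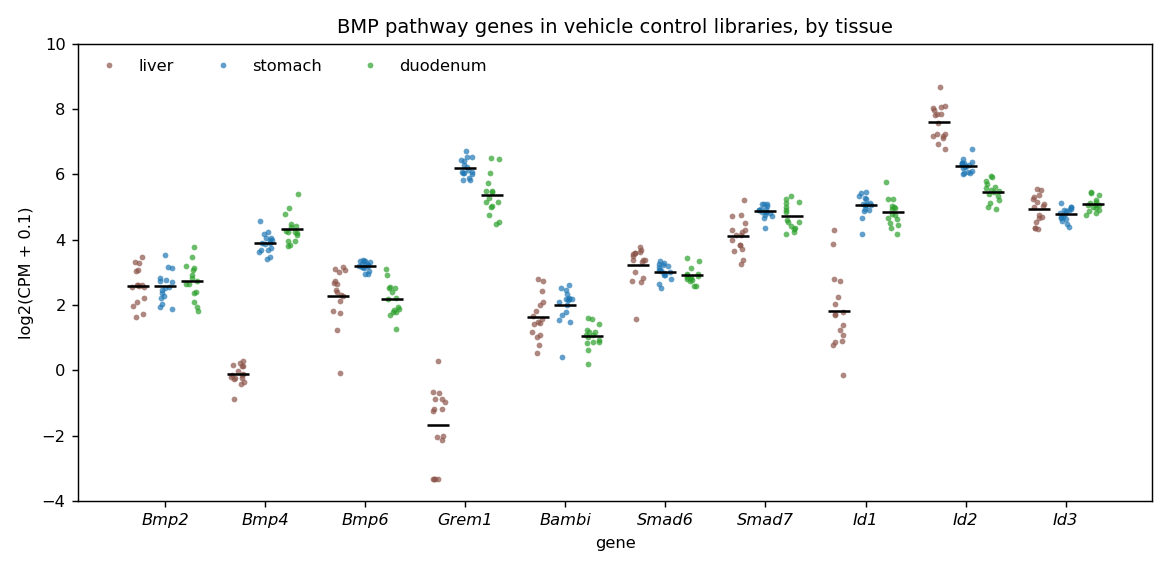
Levels of the 10 genes in the vehicle control libraries (16 liver, 16 stomach, 15 duodenum), as log2 of CPM plus 0.1. Points are libraries and bars are means on that scale; Bmp4, Grem1 and Id1 sit lowest in liver and Id2 sits highest there.

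The dose question was asked in each tissue as high or low dose against vehicle, averaged over the sexes. In the duodenum at the high dose 4 of the 10 genes fell: the ligand Bmp2, both inhibitory Smads and the target Id1. Of all 15189 genes tested there, 16.3% passed and 7.58% passed as lower.

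Bmp2 ran from 3.40 to 13.6 CPM (median 6.51) in the 15 control libraries, from 3.35 to 8.27 (median 4.84) in the 16 low-dose libraries and from 3.35 to 9.10 (median 4.55) in the 16 high-dose libraries. The ranges overlapped, and 1 of 16 libraries at each dose stood above the control median. At the high dose it fell by 0.48 ± 0.15 on the log2 scale (edgeR adjusted p = 0.025). At the low dose the log2 difference was -0.52 ± 0.15, with an unadjusted edgeR p of 0.000978 and an adjusted p of 0.199.

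Smad7, which blocks type I receptors for BMP and TGF-beta alike, was the member farthest from 0 at the high dose, followed by Bmp2. It ran from 18.0 to 40.1 CPM (median 24.4) in controls, from 17.02 to 52.5 (median 20.0) at the low dose and from 12.2 to 29.1 (median 18.7) at the high dose. Of the 16 high-dose libraries, 7 lay under the lowest control. The high-dose log2 change was -0.52 ± 0.13 (edgeR adjusted p = 0.0114) and the low-dose one -0.29 ± 0.13 (edgeR adjusted p = 0.31). Smad6, which acts mainly on the BMP branch, ran from 5.84 to 10.9 CPM (median 7.18) in controls and from 5.02 to 8.36 (median 6.21) at the high dose, and 6 of 16 lay under the lowest control. It fell by 0.23 ± 0.08 on the log2 scale (edgeR adjusted p = 0.034). Its estimated counts were fractional in 17% of duodenum libraries, so part of its value is an estimate and not a whole read count.

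Id1 ran from 17.9 to 55.0 CPM (median 27.8) in controls, 16.9 to 31.4 (median 24.5) at the low dose and 17.5 to 35.6 (median 22.1) at the high dose. Both exposed groups lay within the control range except for 1 library each under its lowest value. The high-dose change was -0.34 ± 0.11 (edgeR adjusted p = 0.0304) and the low-dose difference -0.29 ± 0.11 (edgeR adjusted p = 0.256). The other Id genes did not pass: Id2 differed by -0.03 ± 0.09, with a 95% interval from -0.20 to 0.14, and Id3 by 0.03 ± 0.08, from -0.14 to 0.19. Whether Id1 changed more than Id3 was not tested.

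Among the other members at the high dose, Bmp6 differed by -0.37 ± 0.15 (edgeR adjusted p = 0.0819), Bmp4 by -0.15 ± 0.13, Bambi by -0.05 ± 0.15 and Grem1 by 0.23 ± 0.15, and none passed. The median log2 difference was -0.19 over the 10 genes and -0.02 over all genes tested. At the low dose all 10 differences were negative (median -0.13, against -0.01 over all genes). None passed, as for every gene tested at that dose (0%), while 3 of the 10 and 14% of all genes were under an unadjusted edgeR p of 0.05. DESeq2 called 18 genes in that comparison. Both doses were set against the same controls, so their directions are not independent.

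**Figure D2:**
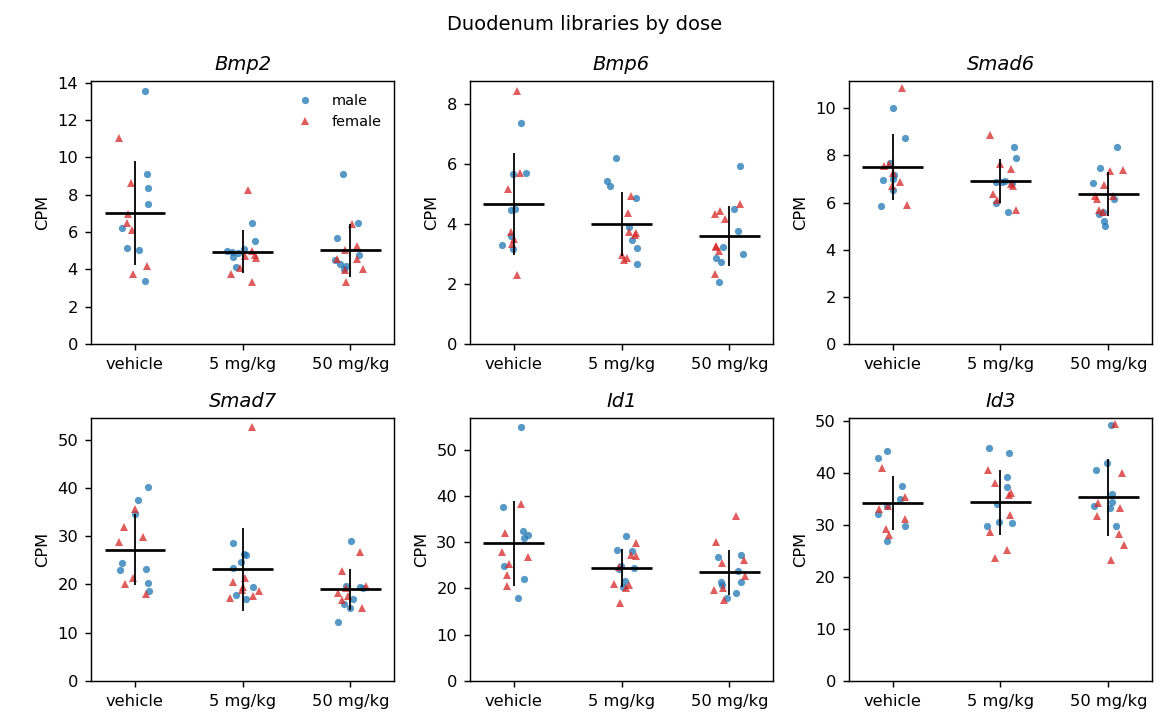
CPM of 6 BMP genes in each duodenum library by dose, males as circles and females as triangles, with the mean and SD over both sexes (15, 16 and 16 libraries). Bmp2, Smad6, Smad7 and Id1 are lower at the high dose while their ranges overlap, and Id3 did not pass.

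Within the sexes, the high-dose difference of Smad7 was -0.54 ± 0.18 in males and -0.50 ± 0.19 in females, that of Bmp2 -0.39 ± 0.20 and -0.57 ± 0.21, and that of Id1 -0.46 ± 0.15 and -0.21 ± 0.16. None passed within 1 sex, and no member passed the test of the difference between the sexes. Of all 15189 genes tested, 0 passed in each of these comparisons. Within batch 2 the 4 changes were -0.72 for Bmp2, -0.27 for Smad6, -0.67 for Smad7 and -0.37 for Id1. Within batch 1 they were -0.13, 0.02, -0.40 and -0.14, and none of the 10 genes passed.

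Other measures moved with dose in the same libraries. The share of counts from 190 ribosomal protein genes was 3.94 ± 0.69% in control duodenum, 4.54 ± 0.83% at the low dose and 5.65 ± 1.57% at the high dose, with ranges of 2.698 to 5.22% and 2.98 to 9.81% for control and high dose. With that share as a covariate 0 members and 0 genes passed, and Bmp2, Smad6, Smad7 and Id1 differed by -0.13, -0.18, -0.11 and -0.25. With 3 surrogate variables 0 passed as well. Leaving out male control replicate 1, the highest library for Bmp2 (13.6 CPM) and Id1 (55.0 CPM), left 1 of the 4 past the threshold. Smad7 passed in every such leave-out; Bmp2 lost its call in 4, Smad6 in 8 and Id1 in 7, through male control replicate 1, male high-dose replicates 1, 3 and 5, female control replicates 1, 6 and 7, and female high-dose replicates 2, 6 and 8. Markers of enterocytes, the absorptive cells, summed to 1598 to 13128 CPM in controls and 1192 to 6921 at the high dose (6 of 7 listed genes tested, 0 passing, median -0.64). Fibroblast markers (755 to 2415 against 645 to 1841 CPM), smooth muscle markers (1596 to 6326 against 2209 to 4750) and endothelial markers (80.9 to 214.3 against 88.5 to 156.6) had 0 passing genes each. The part of ribosomal protein share or cell mixture in the fall of these genes was not tested.

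Outside the 10 genes, 69 further genes of the pathway were listed and 52 were tested in the duodenum. At the high dose 10 fell and 1 rose, 21.2% against 16.3% of all genes tested, so the share in either direction is near the background. As lower alone, 10 of the 52 passed, against 7.58% of all genes tested. Whether the list fell more than other genes was not tested. Of 8 genes listed as intracellular brakes 5 fell, and a place in that list is not evidence of the role. Among them were Zc3h3 (-0.43 ± 0.11, edgeR adjusted p = 0.013) and the phosphatase gene Ctdsp2 (-0.27 ± 0.08, edgeR adjusted p = 0.0174). Skil (-0.41 ± 0.12) and Smurf1, a ubiquitin ligase for Smads (-0.22 ± 0.07), were others. Of 6 tested ligands 3 fell: Bmp1, a procollagen protease named with the family (-0.33 ± 0.10), and the scarce Bmp8a and Bmp8b. Bmp8a averaged 0.625 ± 0.734 CPM in controls and 0.052 ± 0.092 at the high dose (edgeR adjusted p = 0.0104), and Bmp8b 2.49 ± 3.17 and 0.469 ± 0.530 (edgeR adjusted p = 0.016). Smad1, a signal carrier, fell by 0.15 ± 0.05, from 42.6 ± 4.2 to 38.5 ± 4.0 CPM. Cdkn1a, a cell cycle inhibitor and Smad target that many stresses also induce, fell by 0.45 ± 0.13. Chrdl1, a BMP-binding antagonist, rose by 0.37 ± 0.13 (edgeR adjusted p = 0.0432). No receptor passed among the 6 tested (median -0.23).

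In the liver no gene passed at either dose (0% of 13130 genes; 446 at an unadjusted edgeR p under 0.05 at the high dose and 272 at the low dose; DESeq2 also called 0 at both). Bmp4 had the smallest p of all genes at the high dose. It ran from 0.442 to 1.12 CPM (median 0.801) over 16 controls, and 8 of the 14 high-dose libraries lay above the highest control. By group, high-dose males ran from 0.472 to 5.32 CPM (median 1.94) on 168 counts in all, and high-dose females from 0.816 to 1.77 (median 1.15) on 62 counts. The log2 difference was 1.12 ± 0.26 (edgeR adjusted p = 1), and 0.85 and 0.95 within batches 1 and 2. It was 1.68 ± 0.34 in males and 0.56 ± 0.40 in females, and 0 of the 13130 genes passed within either sex. Its low-dose difference was 0.45 ± 0.26. Bambi differed by 0.39 ± 0.17 and 0.35 ± 0.16 at the high and low dose, also unadjusted calls only. Id1 differed by 0.02 ± 0.32 at the high dose, an interval of -0.60 to 0.64 that would hold a change as large as that in the duodenum. Hamp, hepcidin, averaged 798 ± 464 CPM in controls and 729 ± 411 at the high dose, and its difference of -0.31 ± 0.31 did not pass. Grem1 was too scarce for the liver test, so 9 members were tested there.

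In the stomach no member passed at either dose, against 4.49% of 15140 genes at the high dose and 0% at the low dose (DESeq2 called 1025 and 28 genes). Grem1 ran from 56.6 to 104.7 CPM (median 69.5) in controls, from 51.4 to 116.2 (median 92.4) at the low dose and from 60.0 to 114.0 (median 82.4) at the high dose. Its differences of 0.25 ± 0.10 and 0.22 ± 0.10 were under an unadjusted edgeR p of 0.05 only (adjusted p = 0.747 and 0.16). Smad7 differed by -0.13 ± 0.06 at the high dose (edgeR adjusted p = 0.19) and Id1 by 0.11 ± 0.11, with an interval of -0.11 to 0.32. Whether Smad7 differed between stomach and duodenum in its response was not tested. Of 54 further pathway genes tested, 1 passed: the scarce coreceptor gene Hjv was lower at the high dose (0.252 ± 0.390 against 1.44 ± 2.62 CPM; edgeR adjusted p = 0.0437).

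**Figure D3:**
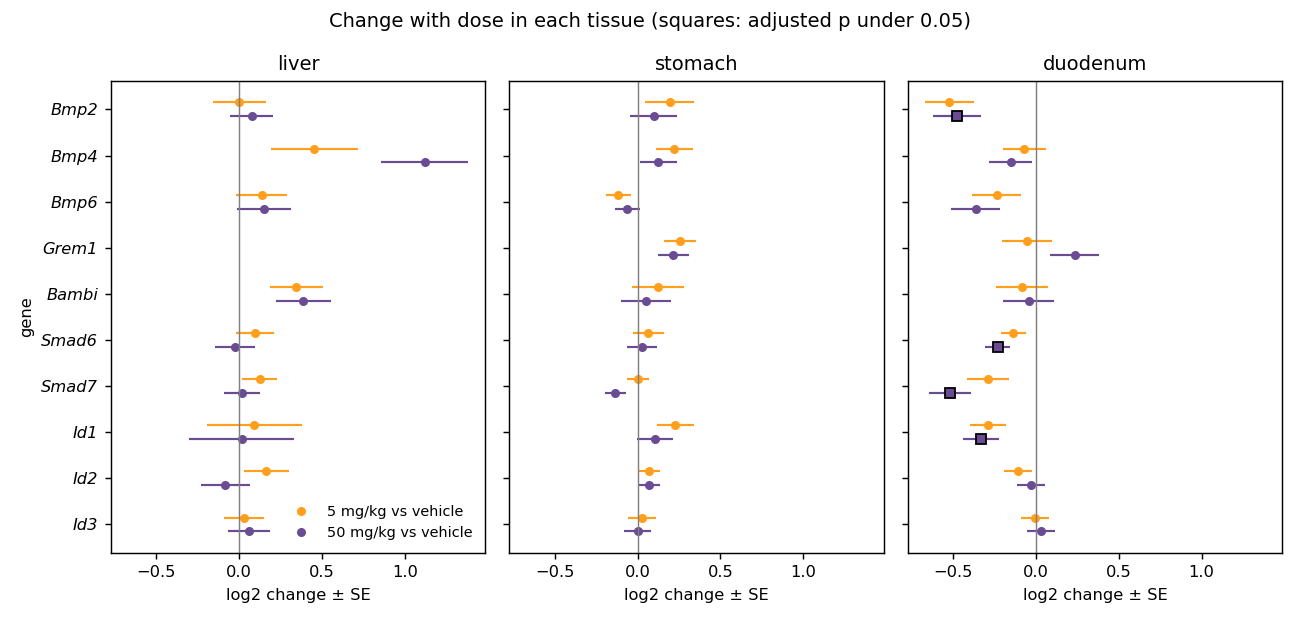
Log2 change with its SE for the 10 genes at the low and high dose in each tissue, on 1 shared axis. Squares passed at an adjusted p under 0.05 and are seen in the duodenum at the high dose alone; Grem1 has no liver value, and liver Bmp4 at the high dose (1.12) is the value farthest from 0.

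Sex separated these genes in the liver. In control livers 5 of 9 tested members were higher in females (Bmp2, Bmp6, Smad6, Id1, Id2) and Bambi was lower. The background was high: 22.8% of genes passed, 10.5% as higher and 12.3% as lower.

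Id1 ran from 2.49 to 19.5 CPM (median 5.61) in the 8 control females and from 0.813 to 3.23 (median 1.89) in the 8 control males. All but 1 female lay above every male. The log2 difference was 2.04 ± 0.42 (edgeR adjusted p = 0.000283). It was 2.09 ± 0.41 among the low-dose libraries, where all 8 females lay above all 8 males, and 2.42 ± 0.42 at the high dose (edgeR adjusted p = 0.000163 and 2.66e-05). Within batches 1 and 2 the control difference was 1.964 and 1.993. Id2 was higher by 0.61 ± 0.20 (240.7 ± 80.2 against 172.4 ± 62.4 CPM; edgeR adjusted p = 0.0257), by 0.63 ± 0.20 at the low dose and by 0.65 ± 0.21 at the high dose, all passing. Without the batch term its control difference was 0.47 (edgeR adjusted p = 0.123). Id3 averaged 36.0 ± 7.7 CPM in control females and 27.7 ± 8.7 in control males and did not pass there (0.37 ± 0.18; edgeR adjusted p = 0.126). It passed at both doses, at 0.91 ± 0.18 and 0.67 ± 0.19.

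Of the ligands, Bmp2 and Bmp6 passed in controls and at neither dose. Bmp2 ran from 5.81 to 10.9 CPM (median 8.25) in control females and from 2.97 to 6.08 (median 4.34) in control males, and 5 of 8 females lay above every male. The difference of 0.84 ± 0.18 passed (edgeR adjusted p = 0.000575), while 0.29 ± 0.18 at the low dose and 0.39 ± 0.19 at the high dose did not. Within batch 2 the control difference was 1.38 and within batch 1 it was 0.09. Bmp6 averaged 6.78 ± 1.83 against 4.05 ± 1.98 CPM in controls (0.78 ± 0.23; edgeR adjusted p = 0.0113). The control difference was 0.17 within batch 1 and 1.41 within batch 2, and with 3 surrogate variables it was 0.46 and no longer passed (edgeR adjusted p = 0.0838). Bmp6 differed by 0.18 ± 0.23 and 0.09 ± 0.24 at the low and high dose. The sex by dose term passed for no member, though 7.84% of genes passed it at the low dose, so a loss of the Bmp2 or Bmp6 sex difference with dose is not shown. Bmp4 did not differ beyond its spread in controls (0.863 ± 0.153 against 0.799 ± 0.202 CPM) and lower in females at the high dose (-1.04 ± 0.35; edgeR adjusted p = 0.0357), where both groups rested on few counts.

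Among the brakes, Smad6 averaged 11.4 ± 1.8 CPM in control females and 8.21 ± 2.97 in control males (0.62 ± 0.17; edgeR adjusted p = 0.00601), with 0.42 ± 0.17 and 0.49 ± 0.17 at the low and high dose (edgeR adjusted p = 0.0634 and 0.0519). Without the batch term its control difference was 0.46 (edgeR adjusted p = 0.0803). Bambi ran from 1.34 to 3.08 CPM (median 2.28) in control females and from 2.18 to 6.78 (median 4.04) in control males. It was lower in females by -0.80 ± 0.24, -0.65 ± 0.23 and -0.93 ± 0.24 at vehicle, low and high dose, passing each time. Smad7 did not pass at any dose (0.16 ± 0.16 in controls). The background shares at the low and high dose were 24.3% and 15.6%, against 4 and 5 of the 9 members.

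**Figure D4:**
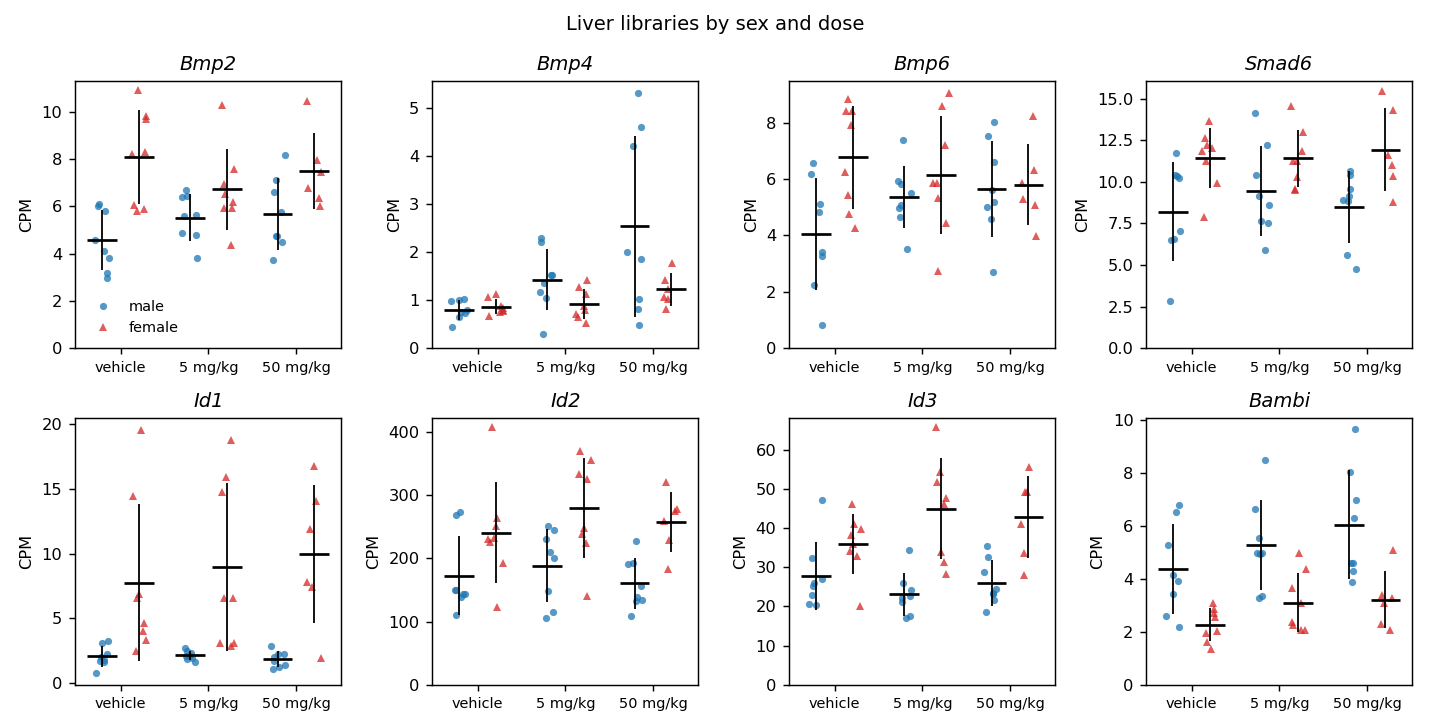
CPM of 8 BMP genes in each liver library by dose, males as circles and females as triangles, with mean and SD (8 libraries a group, 6 for high-dose females). Id1 is higher and Bambi lower in females at all 3 doses, and Bmp2 and Bmp6 are separated most in the vehicle group.

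Within batch 1 alone none of the 9 genes passed in controls (947 genes in all did), and within batch 2 alone 3 did (1489 genes), against 2995 genes with every batch. Leaving out single libraries gave 5 to 7 (2234 to 3330 genes): Id2 lost its call without male control replicate 2 or 7 or female control replicate 1 or 4, and Id3 gained one without male control replicate 5. The 7 sinusoidal endothelial markers summed to 424 to 571 CPM in control females and 237 to 470 in control males. Of these, 2 passed as higher in controls (median 0.41), 1 at the low dose (median 0.04) and 0 at the high dose (median 0.28). General endothelial markers summed to 315 to 408 and 163 to 346 CPM (2 of 7 passing), macrophage markers to 417 to 761 and 300.0 to 688 CPM (4 of 8 passing), and fibroblast markers were lower, at 1062 to 1687 and 1419 to 2376 CPM (3 of 7 passing as lower). Hepatocyte markers summed to 171253 to 251048 and 135227 to 204225 CPM (1 of 7 passing as higher, 3 as lower). Pancreatic acinar transcripts split the control livers by sex without overlap, at 18.0 to 545.8 CPM in females and 0.168 to 2.23 in males over 7 genes, of which 1 was tested and passed as higher. Their part in the differences between the sexes was not tested.

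Of 69 further pathway genes, 50 were tested in liver, and 11 were higher and 6 lower in control females, 34% against 22.8% of all genes tested. Bmp7, a ligand, had the smallest p (1.34 ± 0.20; 16.0 ± 3.2 against 6.31 ± 1.69 CPM; edgeR adjusted p = 8.15e-07). Ski, a corepressor that binds Smads, was higher by 0.91 ± 0.15 (115 ± 16 against 62.9 ± 19.6 CPM). Atoh8, a transcription factor that responds to BMP and iron in mice, was higher by 0.62 ± 0.13. Among the 6 lower genes were Skil (-0.81 ± 0.18, edgeR adjusted p = 0.000795), Cdkn1a (-1.07 ± 0.32, edgeR adjusted p = 0.0131) and Hes1 (-0.76 ± 0.25, edgeR adjusted p = 0.0246). Cdkn1a and Hes1 were listed as targets, as was Atoh8, so the listed targets went both ways. Of 7 coreceptors 3 were higher, and none of the 6 receptors or 3 signal transducers tested passed. Hamp averaged 868 ± 220 CPM in control females and 728 ± 634 in control males and did not pass (0.69 ± 0.44; edgeR adjusted p = 0.265). Within batches 1 and 2 its control difference was 2.52 and -0.25. At the low dose Hamp was higher in females by 1.32 ± 0.43 (edgeR adjusted p = 0.0208), and at the high dose by 0.81 ± 0.44 (edgeR adjusted p = 0.256). Its sex by low dose term did not pass (edgeR adjusted p = 0.458).

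In the other tissues no member passed between control females and males, against 0.172% of genes in stomach and 0.079% in duodenum (DESeq2 called 59 and 18; 1106 and 805 genes were at an unadjusted edgeR p under 0.05). Bmp2 in stomach came nearest. It ran from 5.44 to 11.4 CPM (median 6.89) in 8 females and from 3.58 to 5.75 (median 4.67) in 8 males, and 7 of 8 females lay above every male. The difference was 0.75 ± 0.20 (edgeR adjusted p = 0.131). In the duodenum its difference between the sexes was -0.11 ± 0.21.

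Across libraries the genes also varied together. With the means of sex, dose and batch removed, log2 CPM was correlated for up to 7 pairs in each tissue, 21 relations in all, with permutation p-values adjusted over the 21. Id1 and Id3 went together in every tissue: Pearson's r was 0.695 in 46 livers (Spearman's rho 0.667), 0.580 in 48 stomachs (rho 0.578) and 0.496 in 47 duodenums (rho 0.469). Their permutation p-values were 1e-05, 3e-05 and 0.00038 for r, the first being the smallest that 100000 resamples can give, and 1e-05, 4e-05 and 0.00102 for rho. The adjusted values were 0.000105, 0.00021 and 0.00133 for r, and 0.00021, 0.00021 and 0.00357 for rho. Without the 2 libraries farthest from the median of Id1, r was 0.668, 0.619 and 0.504. Within batches 1 and 2 it was 0.789 and 0.649 in liver, 0.443 and 0.598 in stomach, and 0.408 and 0.522 in duodenum.

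Id1 was set against each ligand in each tissue. The 2 extreme libraries, here and below, were those farthest from the median of the first gene named in each pair. Bmp2 and Id1 had r of 0.691 in the duodenum (rho 0.603; permutation p = 1e-05 and 3e-05, adjusted 0.000105 and 0.00021), 0.630 without the 2 extreme libraries, and 0.632 and 0.757 within batches 1 and 2. In stomach r was 0.412 (rho 0.376; permutation p = 0.00363 and 0.00949, adjusted 0.0076 and 0.0228), 0.400 without the extremes, and 0.603 and 0.328 within batches. In liver it was 0.056 (rho 0.066; permutation p = 0.71 and 0.66, adjusted 0.877 and 0.815), -0.021 without the extremes, and -0.013 and 0.018 within batches. Bmp4 with Id1 in stomach had r of 0.451 (rho 0.368; permutation p = 0.00126 and 0.0107, adjusted 0.00331 and 0.0228), 0.331 without the extremes, but -0.018 within batch 1 against 0.546 within batch 2. In the duodenum r of Bmp4 with Id1 was -0.131 (rho -0.204; permutation p = 0.378 and 0.167, adjusted 0.529 and 0.251), -0.292 without the extremes, and -0.443 and 0.107 within batches. In liver it was 0.035 (rho 0.029; permutation p = 0.822 and 0.845, adjusted 0.901 and 0.888), -0.048 without the extremes, and -0.053 and 0.129 within batches. Bmp6 with Id1 did not pass in liver, stomach or duodenum, with r of 0.017, 0.029 and 0.110 (rho -0.016, -0.029 and 0.052; permutation p for r = 0.912, 0.845 and 0.461, adjusted 0.912, 0.901 and 0.604; adjusted p for rho = 0.916, 0.888 and 0.848). The differences between tissues were not tested.

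Id1 and Smad7 had r of 0.515 in the duodenum (rho 0.488; permutation p = 0.00022 and 0.00066, adjusted 0.000924 and 0.00277), 0.447 without the extremes, and 0.581 and 0.542 within batches. In stomach r was 0.341 (rho 0.307; permutation p = 0.0183 and 0.0351, adjusted 0.0321 and 0.0615), so that rho did not pass, with 0.314 without the extremes and 0.310 and 0.392 within batches. In liver it was 0.211 (rho 0.244; permutation p = 0.158 and 0.101, adjusted 0.255 and 0.164), and -0.152 and 0.324 within batches. Id1 and Smad6 had r of 0.561 in stomach (rho 0.592; permutation p = 4e-05 and 2e-05, adjusted 0.00021 and 0.00021), 0.518 without the extremes, and 0.643 and 0.550 within batches. In the duodenum r was 0.412 (rho 0.366; permutation p = 0.00398 and 0.0119, adjusted 0.0076 and 0.0228), 0.297 without the extremes, and 0.099 and 0.470 within batches. In liver it was -0.027 (rho -0.081; permutation p = 0.858 and 0.592, adjusted 0.901 and 0.777), and 0.419 and -0.220 within batches. Bmp4 and its antagonist Grem1 had r of 0.465 in the duodenum (rho 0.415; permutation p = 0.00119 and 0.00405, adjusted 0.00331 and 0.0121), 0.341 without the extremes, and 0.537 and 0.520 within batches. In stomach r was 0.160 (rho 0.104; permutation p = 0.275 and 0.481, adjusted 0.413 and 0.673), and -0.282 and 0.350 within batches. Bmp6 and Hamp in liver were negatively related, with r of -0.437 (rho -0.370; permutation p = 0.00236 and 0.0119, adjusted 0.00551 and 0.0228), -0.393 without the extremes, and -0.134 and -0.531 within batches 1 and 2.

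**Figure D5:**
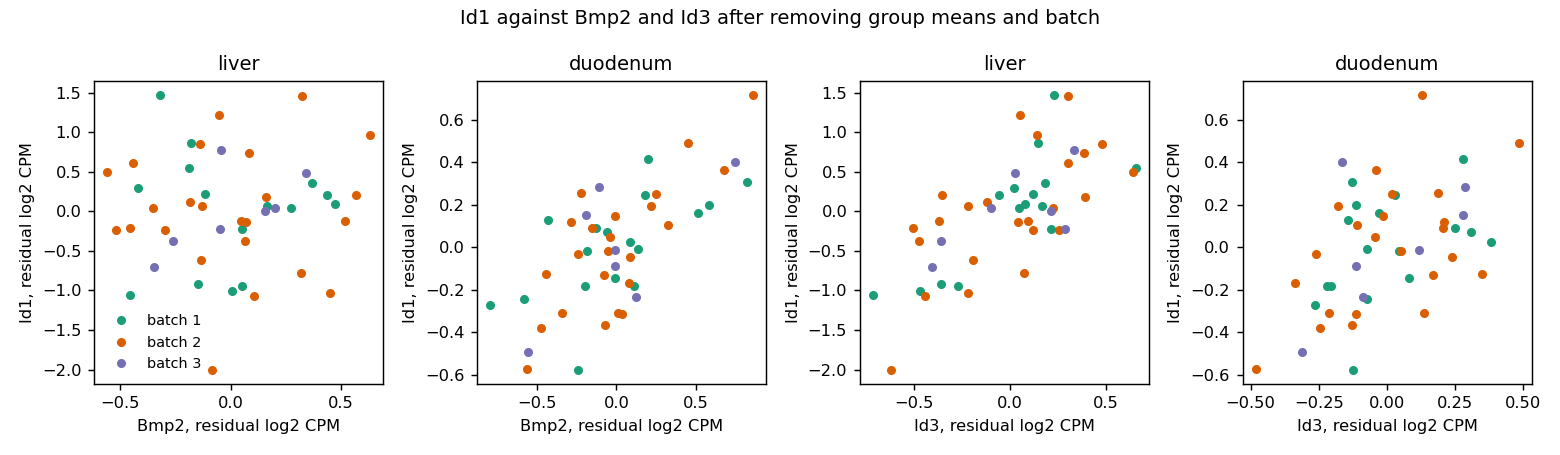
Id1 against Bmp2 and against Id3 in liver (46 libraries) and duodenum (47), as log2 CPM with group means and batch removed, coloured by batch. Bmp2 and Id1 rise together in duodenum (r = 0.691) and not in liver (r = 0.056), while Id3 and Id1 rise together in both.

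These relations sit in a broader covariation. By correlation with Id1, Id3 ranked 8 of 12580 genes in liver, 107 of 14417 in stomach and 972 of 14336 in duodenum, and Id2 ranked 65, 26 and 289 in the same order. Bmp2 ranked 4921, 723 and 166. Genes among the 5 most like Id1 over 46 livers were Asgr2 (r = 0.777), F7 (0.761) and Ccn3 (0.733). Over 48 stomachs the 5 were Elf3 (0.770), AABR07034648.1, Krt8, Dok4 and Krtcap3 (0.714). Over 47 duodenums they were Plscr2 (0.848), Themis3, Nfkbib, Ubb and Stx3 (0.813). These r values are a description over libraries that differ in depth and in tissue makeup.

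The transcript estimates were used for a description of isoforms. Bmp2, Bmp6, Smad6, Id1 and Id3 had 1 annotated transcript each, so their gene counts are those of 1 form. Smad7 counts in control duodenum came to 68.7% from ENSRNOT00000024831 and 28.9% from ENSRNOT00000115038, pooled over 15 libraries, and at the high dose to 62.3% and 36.4%. Per library the first share was 68.2 ± 11.3% in controls (SD, n = 15) and 60.9 ± 7.4% at the high dose (SD, n = 16). Whether these means differ was not tested. Bmp4 counts were divided between ENSRNOT00000083268 (62.1 ± 6.7%) and ENSRNOT00000012957 (37.9 ± 6.7%) in control duodenum.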

How the data were processed

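The authors deposited estimated counts per gene and per transcript of polyA RNA, made from their reads, in separate tables for each tissue. The submitters' processing notes name the build mRatBN7.2. They list Salmon 1.10.3 and STAR 2.7.11b, then UMI-tools 1.1.5, Trim Galore 0.6.10 with cutadapt 4.9, and for quality control MultiQC 1.28 and FastQC 0.12.1, without their settings. The estimated counts were rounded to whole numbers. Such tables share reads among similar features, which can move a gene with near copies.

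Within each tissue, genes passing filterByExpr (minimum count 10, total 15) were fitted with edgeR 4.0.16 (R 4.3.3; quasi-likelihood test, TMM scaling) on sex and dose groups with batch as a covariate, and p-values were Benjamini-Hochberg adjusted over all genes tested in that tissue, with a threshold of 0.05. Tissues were compared in 1 fit of the 47 controls. This fit was unpaired, and the labels do not say whether the tissues share animals. Every SE is the log2 difference divided by the square root of its F, and 95% intervals take that SE as normal. CPM used 1 TMM scaling over all libraries, and log2 CPM a prior count of 2. Correlations were tested with 100000 permutations (scipy 1.17.1). The edgeR fit within a tissue was tested on simulated counts with known changes at the high dose and no batch effect. The other steps were not tested in this way. Totals per library ran from 4947800 to 25504000 counts, and intervals cover the fitted spread.

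The members and gene lists were chosen with earlier results of these data known. Other pathway genes were named by the 4 smallest p-values per comparison, and the rest were chosen after their values were seen. Some genes that these rules name are not reported here. Alternatives were DESeq2 1.42.0 and its size factors, no filter, no batch term, a replicate block, 3 surrogate variables (sva 3.50.0), ribosomal protein share as a covariate, and leaving out batch 3 or single libraries. Sex differences at each dose, their leave-outs and fits within 1 batch were added after seeing the data.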

Additional observations from a re-analysis of the deposited data

Results flagged for a closer look

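Of 180 groups of 6 to 8 libraries, 13 held 1 library farther from the rest than a gap test on log2 CPM allows, and chance gives about 1 in 20. In the duodenum, female low-dose replicate 7 was highest for both Bmp2 (8.27 CPM, the next library 4.96) and Smad7 (52.5 CPM, the next 21.3), and female control replicate 7 was highest for Smad6 (10.9 CPM, the next 7.61). Without that low-dose library Bmp2 passed at the low dose (edgeR adjusted p = 0.0427).

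In the liver, 3 libraries were low. Male low-dose replicate 2 had 0.293 CPM of Bmp4, which is 2 counts, against 1.05 in the next. Male control replicate 7 had 2.85 CPM of Smad6, or 17 counts, against 6.49, and female control replicate 2 had 20.1 CPM of Id3 against 32.8.

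In the stomach, male control replicate 6 was lowest for both Smad7 (20.5 CPM, the next 28.6) and Bambi (1.22 CPM, the next 2.72). Bmp4 was high in male low-dose replicate 7 (34.6 CPM, the next 19.9) and in female high-dose replicate 2 (19.6 CPM, the next 14.1). Smad6 was low in female high-dose replicate 3 (4.72 CPM, the next 8.04), Id2 was high in female control replicate 2 (109.9 CPM, the next 81.4), and Id3 was high in female high-dose replicate 5 (40.8 CPM, the next 30.2).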

How the results depend on the processing

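Of the 4 duodenal genes that fell at the high dose, 2 passed without the batch term (Smad6 and Id1 lost at adjusted p = 0.0502 and 0.0504), 2 without batch 3, 2 within batch 2, 0 within batch 1, 0 with 3 surrogate variables and 0 with ribosomal protein share as a covariate. Over all genes the counts there were 1569, 1719, 1340, 0, 0 and 0. Without the low-count filter Smad6 also lost its call (edgeR adjusted p = 0.0644). Leaving out single libraries gave 1 to 5 members (1146 to 3700 genes) at the high dose and 0 to 1 at the low dose, where batch 2 alone gave 2. DESeq2 gave 2 in males at the high dose. The liver difference between the sexes gave 0 members within batch 1 (947 genes), 3 within batch 2 (1489 genes) and 5 to 7 with single libraries left out (2234 to 3330 genes). Within a tissue, same-numbered libraries of different sex and dose groups did not deviate together (median correlation -0.0185, 0.00928 and 0.0169 in liver, stomach and duodenum). That check cannot show whether the tissues share animals. With the replicate number as a block 1 member passed between the sexes in stomach, Bmp2 (edgeR adjusted p = 0.039). Between control tissues, Smad6 passed for stomach against duodenum with DESeq2 (DESeq2 adjusted p = 0.0232) and with its size factors (edgeR adjusted p = 0.036). Smad6 passed for stomach against liver without the batch term (edgeR adjusted p = 0.0399), and Id3 did so without batch 3 (edgeR adjusted p = 0.0237). The stomach high-dose count over all genes ran from 4 to 1465 with single libraries left out. The cause of these changes was not tested.

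Differences that changed sign by more than 1 SE were these; duodenal Smad6 aside, none had passed before the setting was changed. Within batch 1, liver Bmp2 (-0.065) and Id2 (0.0845) at the high dose and Id1 (-0.23) at the low dose; stomach Bmp2 (-0.23), Bmp6 (0.0306) and Smad6 (-0.0379) at the low dose and Smad6 between the sexes (-0.11); duodenum Bmp4 (0.0295), Bmp6 (0.0806) and Bambi (0.35) at the high dose, Bmp6 (0.18) at the low dose, and Id1 (0.039) and Id3 (0.13) between the sexes. Duodenal Smad6 at the high dose, which had passed, was 0.0236 there. Within batch 2, liver Id3 (-0.10) and stomach Id3 (0.22) at the high dose, duodenum Grem1 (-0.0568) at the high dose, Bmp4 (0.0599) at the low dose and Bambi (0.13) between the sexes. Between the sexes at the low and high dose in place of controls, liver Bmp4 was -0.71 and -1.04, stomach Smad6 -0.0318 and -0.0494, Id1 -0.16 and -0.11 and Id2 -0.0767 and -0.0669; at the high dose alone, stomach Bambi was -0.11 and duodenum Id1 0.0903 and Id2 -0.23. Without the batch term liver Smad7 between the sexes was -0.0908. With ribosomal protein share, stomach Bmp4 (-0.11), Id1 (-0.0383), Id2 (-0.0676) and Bambi (-0.15) and duodenum Id3 (-0.18) at the high dose; with 3 surrogate variables, stomach Id2 (-0.0659) and duodenum Bmp6 (0.0084) and Id3 (-0.12) at the high dose and duodenum Smad7 (0.0066) at the low dose. Sign changes of any size numbered 44 of 876 values under the other settings, 17 of 58 between the sexes at a dose, 38 of 174 within 1 batch and 150 of 4092 with 1 library left out. Low counts limit liver Bmp4 (95 counts over 16 controls) and Grem1 (36).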
